A study of Mus musculus with 12 samples.

Results

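Mouse genes for the transport and reduction of adriamycin were examined in glomeruli of 2 BALB/c substrains. The 8 genes were chosen by symbol, not by their values, and are Abcb1a, Abcb1b, Abcc1, Abcg2, Cbr1, Cbr3, Akr1a1 and Por. They are 8 of the 26264 gene symbols in the count tables, and all 8 passed the filter on low counts that left 17002 genes for testing. All animals were 8-week-old males, either of the BALB/cAjcl substrain (AJcl) or of BALB/cByJcl (ByJcl). In each substrain, 3 libraries came from untreated mice (baseline) and 3 from mice killed 5 days after a single retro-orbital injection of adriamycin (ADR, doxorubicin hydrochloride) at 10 mg/kg (Day 5). Glomeruli had been trapped with magnetic beads perfused through the heart, and poly(A) RNA of these glomerulus-enriched preparations was sequenced, so the values describe a mixture of glomerular cells with some tubule. The labels and the study's results call the baseline mice untreated. The study's methods describe saline for control mice, so whether the baseline mice had an injection is not settled here. Baseline and Day 5 counts came in separate tables, so an effect of the injection, of the table and of ADR cannot be told apart.

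Doxorubicin enters cells mainly by diffusion and is pumped out by ATP-binding cassette (ABC) transporters. P-glycoprotein, which mice encode with the paralogs Abcb1a and Abcb1b, is the classical anthracycline pump, and the multidrug resistance protein MRP1 (Abcc1) and the breast cancer resistance protein BCRP (Abcg2) also carry anthracyclines or related drugs. Inside the cell the drug is reduced in different ways. The carbonyl reductases Cbr1 and Cbr3 and the aldo-keto reductase Akr1a1 reduce its side chain ketone to the alcohol doxorubicinol. Cytochrome P450 oxidoreductase (Por) can pass a single electron to the quinone ring, and the semiquinone so formed hands its electron to oxygen. ADR nephropathy is a model of podocyte injury with proteinuria. In the kidney, BCRP and P-glycoprotein sit on the brush border of the proximal tubule, and Akr1a1 is abundant in that segment.

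The P-glycoprotein genes and the carbonyl reductase genes each form a pair of neighbouring paralogs, and their start regions are shown because the balance within each pair is measured below. Positions are on GRCm39, with genes from GENCODE vM39. Abcb1a (chr5:8710022-8798575) and Abcb1b (chr5:8847994-8916389) lie on the plus strand with starts 137972 bases apart. Cbr1 (chr16:93402741-93407393) and Cbr3 (chr16:93479726-93487879) lie on the plus strand, and the starts of their canonical transcripts are 75021 bases apart. The windows are RefSeq promoters from 250 bases before to 50 bases after the gene start, from a table of build GRCm38.p6, and each was placed on GRCm39 by its single exact match. Of the 8 genes, all but Abcc1 matched an entry of that table. Capitals mark the motifs searched on both strands, which were the CCAAT box, the GC box with letters GGGCGG, the core promoter motif TATAAA, and TGANNNNGC (the core of the antioxidant response element bound by Nrf2).
Abcb1a promoter, chr5:8616841-8617140, plus strand: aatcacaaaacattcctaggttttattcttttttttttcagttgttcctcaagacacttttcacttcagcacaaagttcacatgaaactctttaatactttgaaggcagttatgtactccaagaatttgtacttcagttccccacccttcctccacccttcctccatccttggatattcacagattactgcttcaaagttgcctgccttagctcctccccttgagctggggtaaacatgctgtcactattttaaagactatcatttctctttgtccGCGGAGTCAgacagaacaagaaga
Abcb1b promoter, chr5:8847897-8848196, plus strand: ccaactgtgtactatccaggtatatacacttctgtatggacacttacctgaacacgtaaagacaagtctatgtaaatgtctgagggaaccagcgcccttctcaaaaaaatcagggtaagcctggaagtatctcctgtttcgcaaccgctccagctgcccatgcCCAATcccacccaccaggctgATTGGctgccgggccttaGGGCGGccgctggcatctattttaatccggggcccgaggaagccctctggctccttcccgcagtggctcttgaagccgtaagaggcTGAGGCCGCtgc
Cbr1 promoter, chr16:93404475-93404774, plus strand: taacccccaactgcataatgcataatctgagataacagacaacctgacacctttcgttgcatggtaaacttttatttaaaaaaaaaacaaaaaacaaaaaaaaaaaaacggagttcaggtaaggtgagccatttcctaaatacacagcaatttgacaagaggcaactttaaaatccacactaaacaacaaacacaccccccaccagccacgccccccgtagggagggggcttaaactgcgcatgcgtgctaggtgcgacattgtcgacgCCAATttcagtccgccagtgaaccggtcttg
Cbr3 promoter, chr16:93479857-93480156, plus strand: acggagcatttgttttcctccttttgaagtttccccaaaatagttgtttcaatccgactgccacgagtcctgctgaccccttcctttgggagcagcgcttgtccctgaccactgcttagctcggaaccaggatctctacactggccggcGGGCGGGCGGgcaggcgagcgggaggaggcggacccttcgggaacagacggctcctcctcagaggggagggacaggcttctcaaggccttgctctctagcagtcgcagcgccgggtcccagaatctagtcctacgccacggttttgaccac

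The windows of the P-glycoprotein pair differed in composition. The Abcb1a window was 40.3% GC and held 1 TGANNNNGC match and none of the other motifs. The Abcb1b window was 55.0% GC and held 2 CCAAT, 1 GGGCGG and 1 TGANNNNGC match. The RefSeq start used for Abcb1a lies 92931 bases upstream of the start of the GENCODE canonical transcript and outside the GENCODE gene, whereas that of Abcb1b lies 153 bases from its own. The Cbr1 window was 44.0% GC with 1 CCAAT match, and the Cbr3 window was 60.0% GC with 2 overlapping GGGCGG matches. Among all 32851 windows of this length the median GC content was 52.7%, and CCAAT was found in 37.4%, GGGCGG in 35.7%, TATAAA in 13.6% and TGANNNNGC in 41.3%. A match describes letters in the window and not a bound site.

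Library totals ranged from 42198416 to 54687045 counts, with a median of 46915194. Counts of the 8 genes in single libraries ranged from 40 (Abcb1b) to 54526 (Akr1a1), so each gene was counted well above the 3 counts (0.0639 CPM at the median total) taken as the limit of detection. Levels are given in CPM, the standard measure of a gene's counts relative to the size of its library, here with library sizes adjusted by trimmed mean of M values (TMM) factors. Podocyte markers, 10 genes including Podxl and Synpo, summed to 16138 to 22127 CPM in AJcl and 20277 to 23331 CPM in ByJcl at baseline, and none was at 0. The 12 proximal tubule markers, including Lrp2 and Slc34a1, were also present in every library, between 662 and 11055 CPM. The study leaves the AJcl Day 5 replicate 1 library out of its primary analysis for low glomerular purity. That library had 11055 CPM of proximal tubule markers against 662 to 7470 CPM in the other 11, and the fits below use those 11 libraries. In bulk RNA, fewer cells of a type and less RNA per cell cannot be told apart.

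None of the 8 genes differed between substrains or between Day 5 and baseline at an adjusted p below 0.05 in any of the 6 contrasts (edgeR quasi-likelihood test over 17002 genes, Benjamini-Hochberg adjustment). The share of all tested genes called was 0.159% for ByJcl against AJcl at baseline, 0.165% for the same comparison at Day 5, 0.312% for Day 5 against baseline in AJcl, 10.6% in ByJcl, 10.4% for the average over both substrains and 0.0% for the interaction of substrain and ADR. With that background, 0 of 8 is not a result particular to these genes in any of the 6 contrasts. At an unadjusted p below 0.05, the test marked 1, 1, 0, 4, 2 and 1 of the 8 genes in the same order, against 8.34%, 14.0%, 9.8%, 26.8%, 24.8% and 8.02% of all genes. DESeq2 called 1 of the 8 genes in ByJcl and in the average, given below, and 0 in the other contrasts, where it called 0.594% (baseline), 3.26% (Day 5), 1.77% (AJcl) and 0.135% (interaction) of all genes. With all 12 libraries edgeR called 0 of the 8 genes in the 6 contrasts, against 0.114%, 0.433%, 0.325%, 7.21%, 9.63% and 0.0% of all genes. The P-glycoprotein gene Abcb1b had the lowest adjusted p. Its share of Abcb1a plus Abcb1b was higher at Day 5 (exact permutation test, adjusted p = 0.04). Leaving out any single library other than ByJcl Day 5 replicate 1 raised that adjusted p to between 0.0667 and 0.25 (exact permutation).

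**Figure D1:**
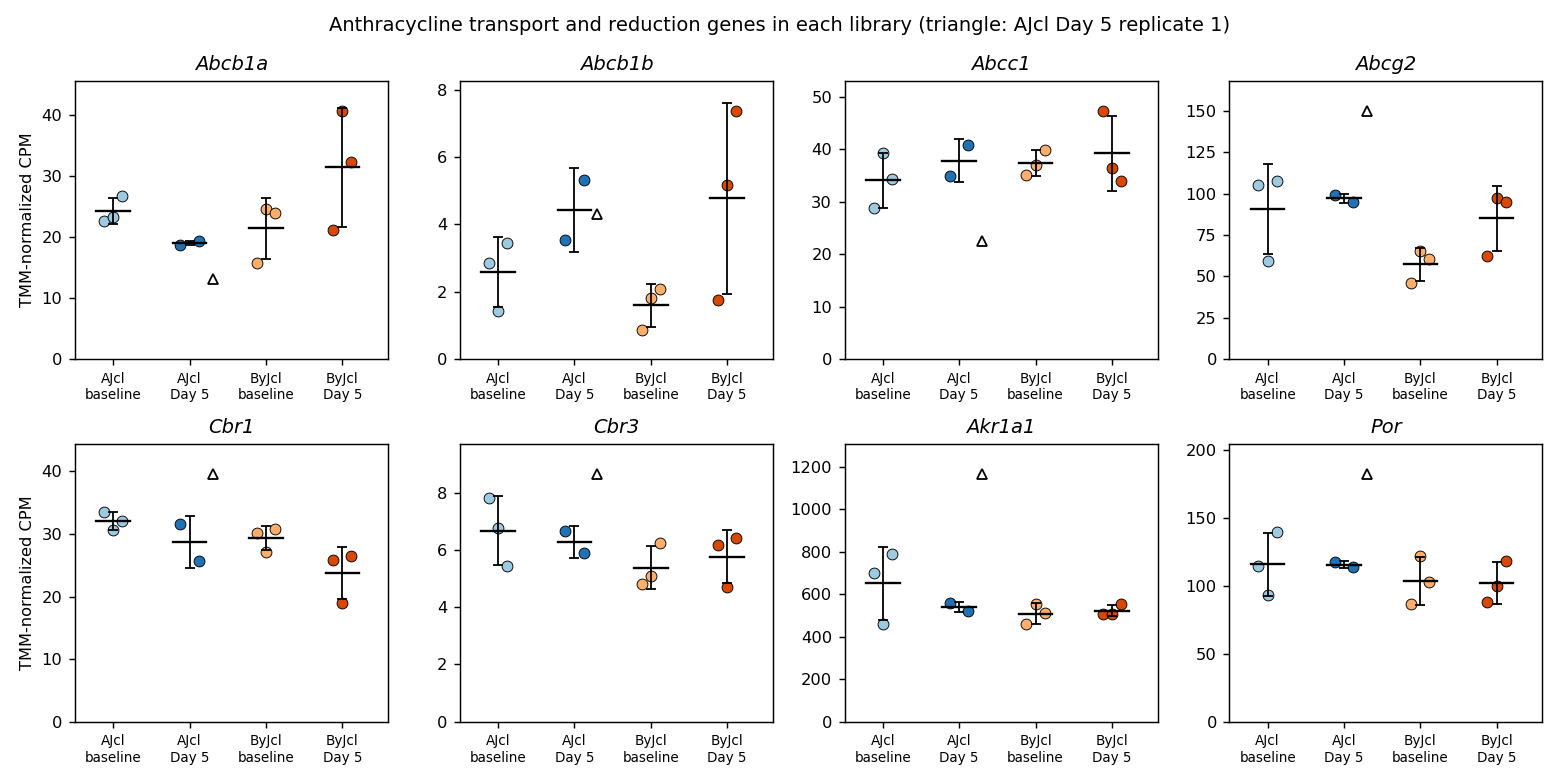
TMM-scaled CPM of each gene (linear axis from 0, a scale of its own per gene) in the 12 libraries by substrain and time. Points are libraries, bars are the mean and SD of the filled points (n = 3, or n = 2 for AJcl Day 5), and the open triangle is AJcl Day 5 replicate 1. The ByJcl Day 5 libraries of Abcb1a (21.2 to 40.6 CPM) all sit above the AJcl Day 5 libraries, and those of Abcb1b spread from 1.77 to 7.37 CPM.

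Per kilobase of canonical transcript, the 8 genes spanned a wide range of levels. Akr1a1, the aldehyde reductase, was highest with a mean of 391 CPM per kb over the 11 libraries, above 99.7% of the 16465 tested genes with a length. Por followed at 41.3, Cbr1 at 22.7 and Abcg2 at 15.1 CPM per kb. Abcc1 at 5.37, Abcb1a at 4.84 and Cbr3 at 3.87 CPM per kb lay near the middle of all genes. Abcb1b was lowest at 0.709 CPM per kb, above 22.9% of genes. Within libraries, Akr1a1 exceeded Por, Por exceeded Cbr1, Abcg2 exceeded Abcc1, and Cbr3 exceeded Abcb1b in 11 of 11. The order was less regular for Cbr1 over Abcg2 (10 of 11 libraries), Abcb1a over Cbr3 (9 of 11) and Abcc1 over Abcb1a (7 of 11). The mean log2 ratio of Abcc1 to Abcb1a per kb was 0.19 with an SD of 0.44 over 11 libraries. That of Abcb1a to Cbr3 was 0.29 with an SD of 0.47, and neither difference was tested. By mean level per kb of canonical transcript, Akr1a1, Por and Cbr1 stood above all 4 pump genes, and Cbr3 stood above Abcb1b alone. The order can change with the lengths used. The union of all exons is 9515 bases for Abcg2 and 3811 for Cbr1, against canonical transcripts of 5391 and 1257 bases.

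Abcb1a encodes the P-glycoprotein form that predominated in these libraries. At baseline it measured 22.6, 23.3 and 26.6 CPM in AJcl and 15.7, 24.6 and 23.9 CPM in ByJcl. The Day 5 libraries gave 18.7 and 19.3 CPM in AJcl and 21.2, 40.6 and 32.3 CPM in ByJcl. The AJcl Day 5 libraries were below all AJcl baseline libraries, and the ByJcl Day 5 libraries were above both AJcl Day 5 libraries. Groups without overlap were found for 1 of the 8 genes between substrains at Day 5 (33.0% of all genes) and for 2 of the 8 between times in AJcl (25.9%). ByJcl exceeded AJcl at Day 5 by a log2 fold change of 0.73 (SE 0.26, adjusted p = 0.267, edgeR), or 1.65-fold, and at baseline the log2 fold change was -0.15 (SE 0.23, adjusted p = 0.849, edgeR). From baseline to Day 5 the log2 fold change was -0.33 (SE 0.26, adjusted p = 0.752) in AJcl and 0.54 (SE 0.23, adjusted p = 0.156) in ByJcl. The interaction, the difference between those changes, was 0.87 on the log2 scale (95% interval 0.12 to 1.63, unadjusted p = 0.0268, adjusted p = 0.620, edgeR). Neither the change nor the difference between substrains passed the test.

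Abcb1b encodes the second form of P-glycoprotein, which in rodents is inducible by many toxic compounds. At baseline it measured 2.86, 1.43 and 3.44 CPM in AJcl and 0.861, 1.82 and 2.09 CPM in ByJcl. At Day 5 it measured 3.54 and 5.31 CPM in AJcl and 1.77, 5.17 and 7.37 CPM in ByJcl. Both AJcl Day 5 libraries were above the AJcl baseline libraries, while in ByJcl the Day 5 replicate 1 library lay among the baseline libraries and the other 2 lay above them. Day 5 exceeded baseline by a log2 fold change of 1.57 in ByJcl (95% interval 0.43 to 2.71, adjusted p = 0.0763, edgeR), or 2.97-fold, and by 0.80 in AJcl (95% interval -0.42 to 2.02, adjusted p = 0.724). Averaged over the substrains the log2 fold change was 1.19 (SE 0.38, unadjusted p = 0.00923, adjusted p = 0.0710, edgeR), or 2.27-fold. The interaction was 0.77 with an interval from -0.90 to 2.44, which leaves the size of any substrain difference in this change undetermined.

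The Day 5 difference of Abcb1b was near the threshold, and its call varied with the fit. DESeq2, the tool the study used, called Abcb1b in ByJcl (log2 fold change 1.59, adjusted p = 0.0133, with 15.8% of all genes called) and in the average (log2 fold change 1.19, adjusted p = 0.0130, with 14.6% called). Without the ByJcl Day 5 replicate 1 library, edgeR called Abcb1b (log2 fold change 1.97, adjusted p = 0.0204) and Abcb1a (log2 fold change 0.77, adjusted p = 0.0323) in ByJcl, with 9.34% of all genes called, and Abcb1b in the average (log2 fold change 1.37, adjusted p = 0.0184), with 10.8% called. That library had the lowest level of proximal tubule markers of the 12, at 662 CPM. The Abcb1b start overlaps the lncRNA gene Gm5106 on the opposite strand, which had at most 2 counts in any library.

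**Figure D2:**
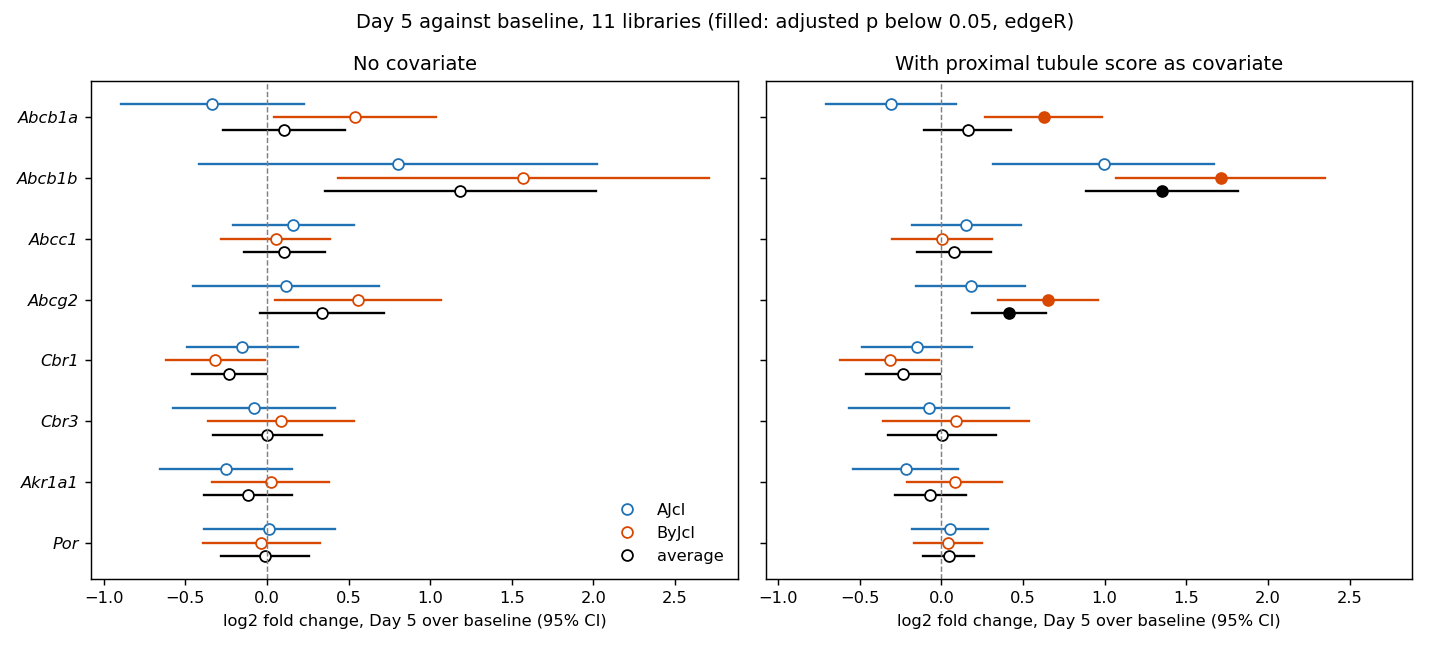
Log2 fold change of each gene from baseline to Day 5 (x axis) with its 95% interval, in AJcl, in ByJcl and averaged over both, from 11 libraries (edgeR). The left panel is the fit without a covariate, in which no point is filled (adjusted p below 0.05), and the right panel adds the proximal tubule score, with Abcb1b and Abcg2 filled in ByJcl and the average, and Abcb1a in ByJcl.

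The balance of the P-glycoprotein genes was measured within each library, as the share of Abcb1b in the summed length-scaled counts of Abcb1a and Abcb1b. A share within a library does not depend on how libraries are scaled to each other. At baseline Abcb1b made up 12.3%, 6.37% and 12.5% in AJcl (mean 10.4% ± 3.47, SD, n = 3) and 5.71%, 7.58% and 8.82% in ByJcl (7.37% ± 1.57, SD, n = 3). At Day 5 it made up 17.3% and 23.3% in AJcl (20.3% ± 4.31, SD, n = 2) and 8.46%, 12.3% and 20.1% in ByJcl (13.6% ± 5.96, SD, n = 3). Abcb1a thus held most of the P-glycoprotein counts in every library, and every AJcl Day 5 share lay above every baseline share of either substrain. Averaged over the substrains, the share was 8.10 percentage points higher at Day 5 (exact two-sided permutation test within substrains, p = 0.01 of a smallest possible 0.005, adjusted p = 0.04 over 4 ratio comparisons). Averaged over the times, ByJcl differed from AJcl by -4.83 points, which did not pass the test (exact permutation p = 0.11, adjusted p = 0.147). With all 12 libraries the Day 5 difference was 9.17 points (exact permutation, adjusted p = 0.04). AJcl Day 5 replicate 1 had the highest share of all, 26.8%, and the highest sum of proximal tubule markers, 11055 CPM. The library with the lowest marker sum had the lowest share in AJcl baseline (6.37%), ByJcl baseline (5.71%) and ByJcl Day 5 (8.46%). In the AJcl Day 5 libraries tested, the one with the lower marker sum had the higher share (23.3%). The share was not tested with these markers as a covariate. Leaving out any single library other than ByJcl Day 5 replicate 1 raised the adjusted p to between 0.0667 and 0.25 (exact permutation), with the difference between 6.47 and 9.62 points, where the fewer libraries allow a smallest unadjusted p of 0.01 to 0.0167. With the union of all exons as length in place of the canonical transcript, the difference was 2.66 points (exact permutation, adjusted p = 0.04), so its size in points depends on the lengths used. The canonical transcripts of the pair are 85.2% identical over 4429 aligned bases and share a stretch of 338 bases, so some reads could be assigned to either gene or dropped, and 4.36% of the 150-base stretches of Abcb1a occur in Abcb1b.

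**Figure D3:**
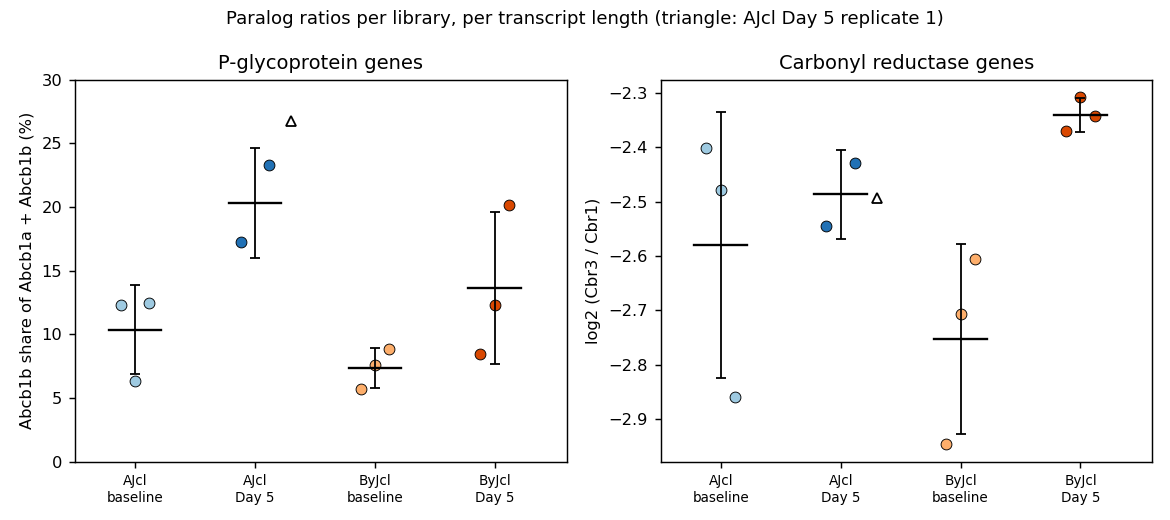
Share of Abcb1b in the summed counts of the P-glycoprotein genes (left, percent) and log2 ratio of Cbr3 to Cbr1 (right), each per transcript length, in the 12 libraries. Points are libraries, bars are the mean and SD of the filled points, and the open triangle is AJcl Day 5 replicate 1. Abcb1b shares were 5.71% to 12.5% at baseline and 8.46% to 23.3% at Day 5 in the 11 libraries tested.

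Abcc1 (chr16:14179311-14293601, plus strand) encodes MRP1, which exports glutathione conjugates and anthracyclines. It measured 28.8, 39.3 and 34.2 CPM in AJcl and 35.1, 37.0 and 39.9 CPM in ByJcl at baseline. The Day 5 values were 34.9 and 40.7 CPM in AJcl and 47.3, 36.4 and 33.9 CPM in ByJcl. All 4 groups overlapped. Its log2 fold change from baseline to Day 5 averaged 0.11 (95% interval -0.14 to 0.36, adjusted p = 0.626, edgeR), and no contrast or alternative setting called it.

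Abcg2 (chr6:58561505-58672661, plus strand) encodes BCRP, a pump of the apical membrane. It measured 105.2, 59.0 and 107.6 CPM in AJcl and 45.9, 65.5 and 60.3 CPM in ByJcl at baseline. The Day 5 libraries gave 99.2 and 94.997 CPM in AJcl and 62.4, 97.5 and 94.97 CPM in ByJcl. At baseline 2 of 3 AJcl libraries lay above all ByJcl libraries, and the third lay among them. Groups of libraries did not overlap for 0 of the 8 genes between substrains at baseline (14.3% of all genes). ByJcl differed from AJcl at baseline by a log2 fold change of -0.63 (95% interval -1.14 to -0.12, unadjusted p = 0.0203, adjusted p = 0.577, edgeR). From baseline to Day 5 the log2 fold change was 0.56 in ByJcl (SE 0.23, adjusted p = 0.152) and 0.12 in AJcl (SE 0.26, adjusted p = 0.926). The ByJcl groups overlapped through Day 5 replicate 1. In each of the 4 groups the library with the lowest sum of proximal tubule markers also had the lowest Abcg2, and with these markers as a covariate the baseline difference between substrains was -0.33 on the log2 scale (adjusted p = 0.658, edgeR).

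Cbr1, a cytosolic carbonyl reductase that forms doxorubicinol, measured 33.6, 30.7 and 32.1 CPM in AJcl and 30.1, 27.1 and 30.8 CPM in ByJcl at baseline. Its Day 5 values were 31.7 and 25.8 CPM in AJcl and 25.9, 19.0 and 26.5 CPM in ByJcl. The ByJcl Day 5 libraries lay below all ByJcl baseline libraries, and Cbr1 was the only 1 of the 8 genes without overlap in that comparison (33.1% of all genes). The log2 fold change was -0.32 in ByJcl (95% interval -0.62 to -0.01, adjusted p = 0.170, edgeR) and -0.23 averaged over the substrains (unadjusted p = 0.0457, adjusted p = 0.190). Cbr3, its paralog, measured 7.81, 6.77 and 5.43 CPM in AJcl and 4.80, 5.10 and 6.23 CPM in ByJcl at baseline. At Day 5 it measured 6.67 and 5.88 CPM in AJcl and 6.16, 4.71 and 6.41 CPM in ByJcl, and its average log2 fold change was 0.00 (95% interval -0.33 to 0.34, adjusted p = 0.992, edgeR). The groups of Cbr3 overlapped in every comparison.

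Per transcript length, Cbr3 stood below Cbr1 in all 12 libraries. The log2 ratio of Cbr3 to Cbr1 averaged -2.58 ± 0.24 (SD, n = 3) in AJcl and -2.75 ± 0.18 (SD, n = 3) in ByJcl at baseline. The Day 5 means were -2.49 ± 0.08 (SD, n = 2) in AJcl and -2.34 ± 0.03 (SD, n = 3) in ByJcl. The ratio was 0.25 higher at Day 5 on the log2 scale (exact two-sided permutation p = 0.05, adjusted p = 0.1), which did not pass the threshold after adjustment. Between substrains the difference was -0.01 (exact permutation p = 0.905). The canonical transcripts of Cbr1 and Cbr3 are 71.7% identical over 1124 aligned bases and share no stretch of 150 bases.

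Akr1a1 (chr4:116493703-116516804, minus strand), which reduces aldehydes and the doxorubicin ketone, measured 702, 462 and 790 CPM in AJcl and 460, 555 and 514 CPM in ByJcl at baseline. Its Day 5 values were 559 and 523 CPM in AJcl and 507, 508 and 554 CPM in ByJcl. Among the 11 libraries fitted, the AJcl baseline group had the widest spread. Its average log2 fold change from baseline to Day 5 was -0.11 (95% interval -0.38 to 0.16, adjusted p = 0.633, edgeR), and ByJcl against AJcl at baseline was -0.32 (95% interval -0.68 to 0.04, adjusted p = 0.612). Por (chr5:135698887-135764182, plus strand), the electron donor of microsomal cytochromes P450, measured 114.9, 93.3 and 139.5 CPM in AJcl and 86.5, 121.6 and 103.2 CPM in ByJcl at baseline. At Day 5 it measured 117.6 and 113.8 CPM in AJcl and 87.8, 100.2 and 118.5 CPM in ByJcl. Its average log2 fold change was -0.01 (95% interval -0.28 to 0.26, adjusted p = 0.971, edgeR), and its groups overlapped in every comparison. The last bases of Por overlap Tmem120a on the opposite strand, which measured 15.9 to 42.7 CPM.

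Levels of the proximal tubule markers differed among the libraries, and the 8 genes are given beside them here. All 12 proximal tubule markers had lower fitted levels in ByJcl than in AJcl at both times, with median log2 fold changes of -0.94 at baseline and -0.97 at Day 5, although none passed the test. The marker sum was 2273 to 7470 CPM in AJcl and 750 to 3911 CPM in ByJcl at baseline, and 2827 to 4241 CPM in AJcl and 662 to 3127 CPM in ByJcl at Day 5. AJcl Day 5 replicate 1, with the highest marker sum, also had the highest Akr1a1, Por, Abcg2, Cbr1 and Cbr3 and the lowest Abcb1a and Abcc1 of all 12 libraries, where 21.8% of all tested genes were highest and 21.2% lowest in that library. In ByJcl, replicate 1 had the lowest marker sum at each time and the lowest Abcb1a, Abcb1b, Abcg2, Akr1a1 and Por of its group. Across the 8 genes the median log2 fold change of ByJcl against AJcl was -0.22 at baseline and -0.08 at Day 5, against 0.01 and 0.00 over all tested genes. All 10 podocyte markers had negative log2 fold changes from baseline to Day 5 in both substrains, with medians of -1.20 in ByJcl and -0.40 in AJcl. In ByJcl 9 of 10 fell (10.6% of all genes called), and in AJcl, with n = 2 at Day 5, edgeR called 0 (0.312% of all genes) and DESeq2 called 1 (1.77%). The marker sums at Day 5 were 8640 to 12345 CPM in ByJcl and 11662 to 16802 CPM in AJcl. The sum of 10 glomerular endothelium markers was 10290 to 13251 CPM in the baseline libraries. In the 5 Day 5 libraries fitted it was 5762 to 9477 CPM, without overlap. Sema3g weighed heavily in that sum, with means at baseline and Day 5 of 3981 and 659 CPM in ByJcl and 3148 and 1320 CPM in AJcl. In ByJcl 7 of the 10 had negative log2 fold changes, 3 of them called, and 3 had positive ones, 1 of them called. Those with positive ones were Pecam1, Cdh5 and Plvap. Of 9 leukocyte markers, 8 had higher fitted levels in ByJcl than in AJcl at Day 5 and 9 at baseline (median log2 fold changes 1.08 and 0.65, none called). All 8 mesangium markers had higher fitted levels in ByJcl than in AJcl at baseline and at Day 5 (median log2 fold changes 0.22 and 0.21, none called). Of 2 erythroid markers tested, 1 fell at Day 5 in each substrain, beside 10.6% of all genes called in ByJcl and 0.312% in AJcl. How far these shifts in cell content bear on the 8 genes was not tested beyond the covariate that follows.

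**Figure D4:**
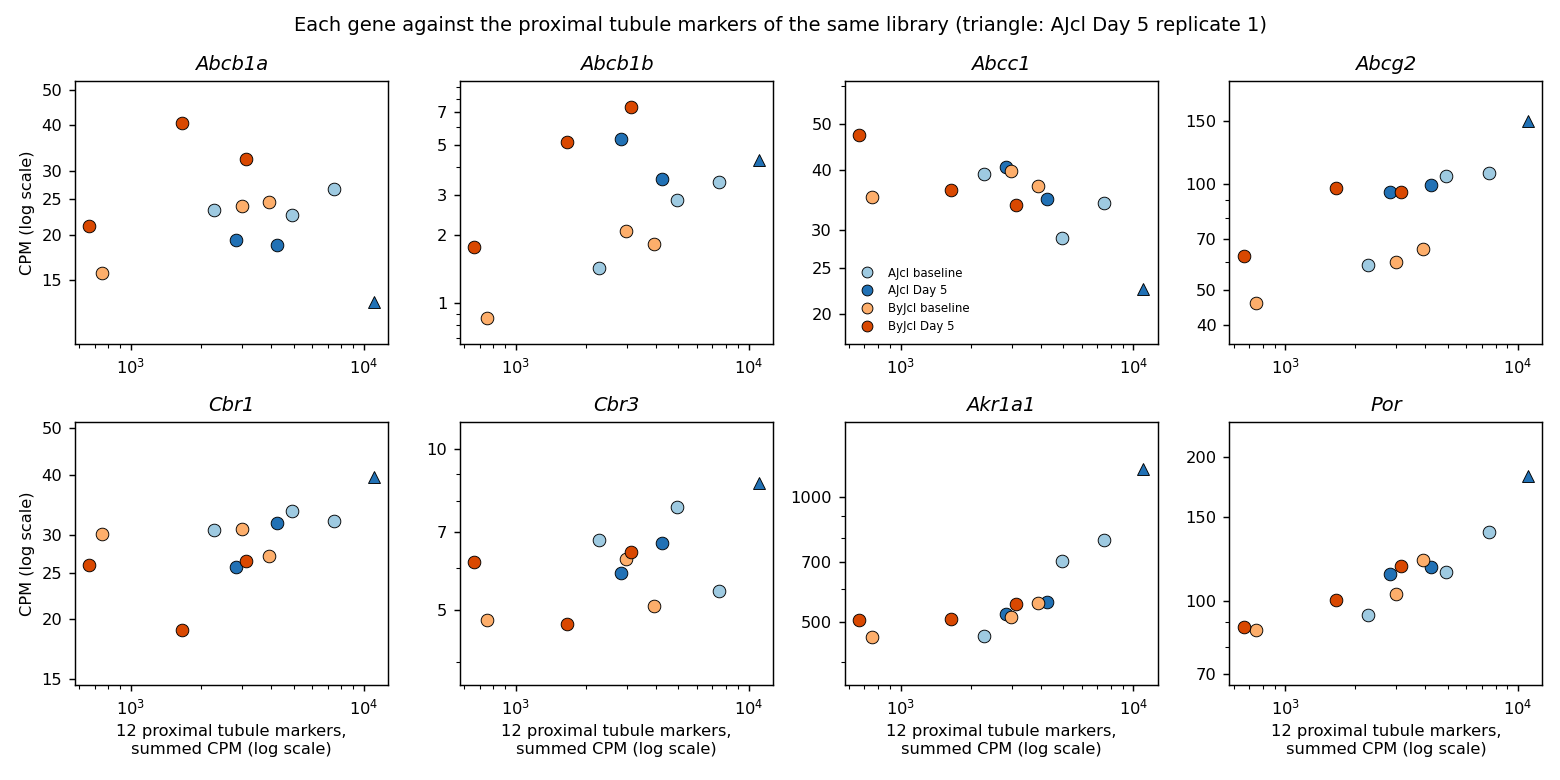
CPM of each gene (y axis, log scale) against the summed CPM of 12 proximal tubule markers (x axis, log scale) in the same library. Colours mark substrain and time and the triangle is AJcl Day 5 replicate 1, which lies at 11055 CPM of markers with 1169 CPM of Akr1a1 and 183 CPM of Por.

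With the mean log2 level of the proximal tubule markers as a covariate, 3 of the 8 genes passed the test in ByJcl, where 13.8% of all genes did. All 3 encode pumps and were higher at Day 5, as were 7.23% of all genes. Abcb1b had a log2 fold change of 1.71 (adjusted p = 0.00283), Abcg2 of 0.65 (adjusted p = 0.00978) and Abcb1a of 0.63 (adjusted p = 0.0254, edgeR). In the average over substrains, where 13.7% of all genes passed and 7.79% were higher, Abcb1b (log2 fold change 1.35, adjusted p = 0.00146, edgeR) and Abcg2 (0.42, adjusted p = 0.0196) were called. Over all 12 libraries with the covariate, Abcb1b and Abcg2 were called in ByJcl (9.05% of all genes) and in the average (12.4%). In AJcl none of the 8 genes passed with the covariate (0.829% of all genes), and Abcb1b had a log2 fold change of 0.99 (adjusted p = 0.196, edgeR). Between the substrains none passed either, at baseline (0.2% of all genes) or at Day 5 (0.353%), where Abcb1a had a log2 fold change of 0.99 (adjusted p = 0.0693, edgeR). The interaction was not called for any of the 8 genes or any other gene, with an adjusted p of 0.369 for Abcb1a, so the pumps were not shown to change differently between the substrains. The reductases Cbr1, Cbr3, Akr1a1 and Por and the pump Abcc1 were not called in any contrast of either fit.

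Wider lists of the same pathways were read against the 10.4% of all genes called in the average of Day 5 against baseline, and no difference between lists was tested. Without AJcl Day 5 replicate 3 that background was 531 of 17672 genes. Of 14 other efflux and uptake transporters tested, 1 was called, a share near that background. It was Abcc5, an exporter of cyclic nucleotides, which fell by 0.47 on the log2 scale (adjusted p = 0.0392, edgeR). Its means at baseline and Day 5 were 136 ± 20.7 and 79.6 ± 7.66 CPM in ByJcl (SD, n = 3 each) and 113 ± 22.9 and 101 ± 18.4 CPM in AJcl (SD, n = 3 and 2). Abcc12 was near the limit of detection, with group means of 0.0504 to 0.233 CPM.

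Among 17 other carbonyl reducing enzymes, 1 rose and 3 fell, beside 10.4% of all genes called. In the same contrast 9 of 12 proximal tubule markers had negative log2 fold changes (median -0.40, none called), and their part in this list was not tested. Akr1b8, an aldo-keto reductase, rose by 0.76 on the log2 scale (adjusted p = 0.0313, edgeR). Cbr2, a mitochondrial carbonyl reductase, fell by 0.94 (adjusted p = 0.0229), Akr1c14, a hydroxysteroid dehydrogenase, fell by 1.27 (adjusted p = 0.0393), and Hsd11b1, which regenerates corticosterone, fell by 1.92 (adjusted p = 0.0457). Hsd11b1 is named because it completes the 3 that fell, after its value was seen. Levels were low for Cbr2, at 1.20 to 2.75 CPM in group means, and for Hsd11b1, at 0.324 to 1.98 CPM. With all 12 libraries Cbr2, Akr1c14 and Hsd11b1 were no longer called, with adjusted p of 0.203, 0.140 and 0.0797 (edgeR).

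Among 16 other quinone or single-electron reducing enzymes, 2 rose and 1 fell in the average, beside 10.4% of all genes called. Txnrd1, the cytosolic thioredoxin reductase and an Nrf2 target, rose by 0.69 on the log2 scale (adjusted p = 0.00419, edgeR). Its means at baseline and Day 5 were 83.0 ± 10.1 and 171 ± 29.5 CPM in ByJcl (SD, n = 3 each) and 92.6 ± 8.53 and 116 ± 22.6 CPM in AJcl (SD, n = 3 and 2). Xdh, xanthine dehydrogenase, rose by 0.77 (adjusted p = 0.00639), with means at baseline and Day 5 of 40.1 ± 4.16 and 86.5 ± 2.52 CPM in AJcl (SD, n = 3 and 2) and of 46.7 ± 11.5 and 62.7 ± 13.2 CPM in ByJcl (SD, n = 3 each). In AJcl alone its adjusted p was 0.0544 (edgeR), and AJcl Day 5 replicate 1 was at 42.7 CPM. Nqo2, a quinone reductase, fell by 0.51 (adjusted p = 0.0139). With all 12 libraries Xdh had an adjusted p of 0.0532.

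Of 22 antioxidant enzymes and Nrf2 targets, 1 rose and 2 fell in the average, a share near the 10.4% of all genes called. Srxn1, sulfiredoxin, rose by 0.53 on the log2 scale (adjusted p = 0.0285, edgeR). Gsta4, a glutathione transferase for lipid aldehydes, fell by 0.73 (adjusted p = 0.00868), and Sod3, the extracellular superoxide dismutase, fell by 0.65 (adjusted p = 0.0472), with an adjusted p of 0.256 for Sod3 when all 12 libraries were used. The median log2 fold changes of these lists were 0.01 for transporters, -0.33 for carbonyl reducing enzymes, 0.03 for quinone or single-electron enzymes and -0.03 for antioxidant enzymes, against 0.05 for the 8 genes and -0.0042 for all tested genes. With all 12 libraries these medians were 0.02, -0.025, 0.20 and 0.10, and 0.10 for the 8 genes, so the size of the carbonyl median and the sign of the antioxidant median rest on leaving out AJcl Day 5 replicate 1. Between the substrains and in the interaction edgeR called none of the genes of the 4 lists, while DESeq2 called 1 between the substrains at each time, beside 0.594% of all genes at baseline and 3.26% at Day 5. These were Nos1, neuronal nitric oxide synthase, lower in ByJcl at baseline (log2 fold change -1.98, adjusted p = 0.0063, DESeq2), and G6pdx, glucose-6-phosphate dehydrogenase, higher in ByJcl at Day 5 (log2 fold change 0.38, adjusted p = 0.0459, DESeq2), both named after their values were seen. All 8 distal nephron markers also had lower fitted levels in ByJcl, with median log2 fold changes of -1.27 at baseline and -1.46 at Day 5 (none called by edgeR), and their part in these calls was not tested.

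**Figure D5:**
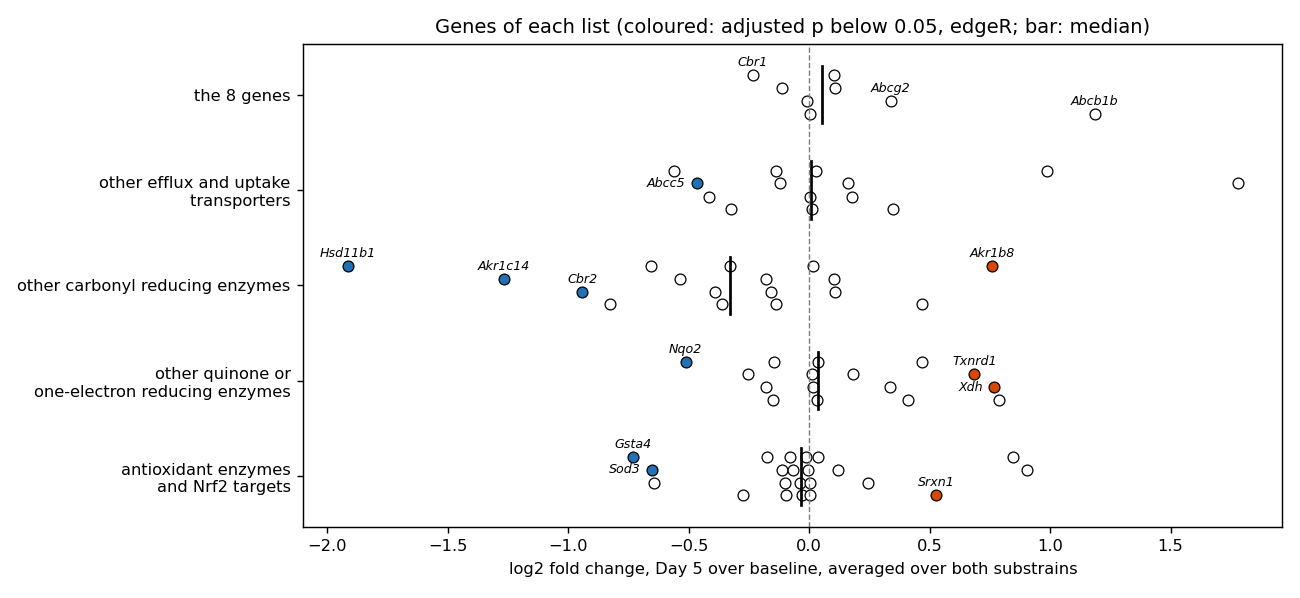
Log2 fold change from baseline to Day 5 averaged over both substrains (x axis) for the 8 genes and the 4 wider lists. Each point is a gene, coloured where the adjusted p was below 0.05 (edgeR; orange higher, blue lower), and bars are list medians. No point of the 8 genes is coloured, and Hsd11b1 and Akr1c14 lie farthest to the left.

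Across the 12 libraries, the genes with the closest profiles differed between the members of each pair. By Pearson correlation of log2(CPM + 1) over 17002 genes, Abcb1a was closest to Ptgs2 (0.911), St8sia6 (0.859) and Samd9l (0.85), and Abcb1b to Cyp4a10 (0.918), Rp1 (0.914) and Pde1c (0.91). Abcb1a and Abcb1b had a correlation of 0.357 with each other over 12 libraries and 0.584 without AJcl Day 5 replicate 1, and Cbr1 and Cbr3 of 0.705 and 0.563, so the order of the pairs rests on that library. Abcg2 was closest to Mgst1 (0.965), Hao2 (0.952) and Car14 (0.948), Akr1a1 to Cyba (0.991), Pebp1 (0.99) and Mrpl12 (0.988), and Por to Chchd10 (0.983), Nit1 (0.979) and Tango2 (0.979). Abcc1 was closest to Crtc2 (0.965), Fbn1 (0.961) and Arhgef1 (0.946), Cbr1 to A230072C01Rik (0.97), Tmtc4 (0.957) and Atp23 (0.951), and Cbr3 to Nme6 (0.927), Tspan8 (0.906) and Arl6 (0.903). These are descriptions over libraries that share their groups and their tubule content, and no test was made of them.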

How the data were processed

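The authors prepared strand-specific poly(A) libraries from glomeruli trapped with magnetic beads, sequenced them on a NovaSeq instrument, and deposited raw counts per gene in one table for baseline and another for Day 5. Their processing notes name FastQC, Trimmomatic, STAR and featureCounts on GRCm39. The annotation and the strand and read-pair settings of the counting are not given in the sources used here. The authors tested these counts with DESeq2, and here edgeR 4.0.16 (R 4.3.3, limma 3.58.1) was used, with DESeq2 1.42.0 as an alternative. Between 77.1% and 82.9% of counts from 1 to 49 were even. If both mates of a read pair were counted, fewer fragments stand behind each printed count and behind the limit of detection than the counts say, so counting intervals are not given.

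Both tables were joined by symbol. Genes passing filterByExpr by group (17002) were scaled by TMM factors and fitted with 4 group means over 11 libraries (7 residual degrees of freedom), without AJcl Day 5 replicate 1, and the Benjamini-Hochberg adjustment covered every tested gene, with a threshold of 0.05. Share and ratio comparisons used exact permutation over libraries in Python 3.11.15. The limit of detection covers counting error only. The study gives its group sizes at baseline in mice, and the labels call the libraries replicates without naming an animal, so p-values measure the spread between these samples. Alternatives were all 12 libraries, DESeq2, relative log expression scaling, a filter of 10 counts in total, only the groups compared, the replicate number as a block, the proximal tubule score as a covariate and leaving out each library. Chosen after seeing the data were the covariate with all 12 libraries and exon-union lengths. The 8 genes, the lists and the markers were chosen with earlier results of these data known. Named from each wider list were up to 3 genes with the smallest adjusted p in the averaged Day 5 contrast (1 such gene is not reported here), and from all genes the 3 most like each of the 8. Transcript lengths came from GENCODE vM39.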

Additional observations from a re-analysis of the deposited data

Results flagged for a closer look

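The AJcl Day 5 replicate 1 library stands outside the comparisons above, and 6 of the 8 genes were higher in it than in all 6 baseline libraries, as were 31.3% of all 17002 tested genes. Akr1a1 reached 1169 CPM, Por 183 CPM, Abcg2 150.03 CPM, Cbr1 39.7 CPM, Cbr3 8.66 CPM and Abcb1b 4.31 CPM. Against the mean of the other AJcl Day 5 libraries, Akr1a1 was 2.16-fold, Por 1.58-fold, Abcg2 1.55-fold, and Cbr1 and Cbr3 each 1.38-fold, while Abcb1b stood at 0.974-fold, Abcb1a at 0.686-fold and Abcc1 at 0.596-fold. The same library had the highest sum of proximal tubule markers, 11055 CPM, and the part of those cells in these levels was not tested.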

How the results depend on the processing

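Calls among the 8 genes changed only in the Day 5 against baseline contrasts of ByJcl and of the average, where none was called at first. In ByJcl and in the average, DESeq2 called 1 and 1, the proximal tubule covariate 3 and 2, and that covariate with all 12 libraries 2 and 2. Leaving out 1 library each gave 0 to 2 in ByJcl and 0 to 1 in the average, and only leaving out ByJcl Day 5 replicate 1 gave any. The adjusted p of Abcb1b ranged from 0.00283 to 0.114 in ByJcl and from 0.00146 to 0.0999 in the average over the other settings, and over left-out libraries from 0.0204 to 0.208 and from 0.0184 to 0.295 (edgeR or DESeq2).

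Of all tested genes, 27, 28 and 53 were called for substrain at baseline, substrain at Day 5 and Day 5 in AJcl, against 101, 555 and 301 by DESeq2. The covariate gave 60 for substrain at Day 5 and 141 for Day 5 in AJcl, and all 12 libraries gave 72 for substrain at Day 5 and 1197 for Day 5 in ByJcl (1800). A fit of only the groups compared gave 15 for substrain at baseline, 6 for substrain at Day 5 and 33 for Day 5 in AJcl. For the interaction edgeR called 0 genes, with 1363 at an unadjusted p below 0.05, and DESeq2 called 23. With 1 library left out, the counts ranged from 12 to 29 for substrain at baseline, from 9 (without AJcl Day 5 replicate 2) to 218 (without replicate 3) for substrain at Day 5, from 11 (without replicate 3) to 180 (without replicate 2) for Day 5 in AJcl, from 680 (without ByJcl Day 5 replicate 2) to 2056 in ByJcl, from 531 (without AJcl Day 5 replicate 3) to 1816 in the average, and from 0 to 5 (without AJcl Day 5 replicate 3) for the interaction. Libraries that share a replicate number did not all deviate together, with correlations of their deviations from -0.24 to 0.37, and nothing in the labels pairs them. The fit with a replicate block left 0 of the 8 genes and 19, 19, 26, 1592, 1469 and 0 of all genes called over the 6 contrasts.

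The log2 fold changes that turned direction were uncalled in both settings, and the widest turns apart from single left-out libraries were those of Akr1a1 with all 12 libraries, from -0.25 to 0.20 for Day 5 in AJcl and from 0.28 to -0.17 for the interaction. With the covariate these were Abcb1a 0.059 and Por 0.079 between substrains at baseline, Abcc1 -0.074, Abcg2 0.14, Akr1a1 0.14 and Por 0.068 between substrains at Day 5, and Por 0.0401 and 0.046 for Day 5 in ByJcl and the average. With the covariate and all 12 libraries they were Abcc1 -0.0035 and Por 0.10 at baseline, Abcg2 0.091 between substrains at Day 5, Abcc1 -0.033, Cbr3 0.061 and Akr1a1 0.11 for Day 5 in AJcl, Abcc1 -0.0078 and Por 0.066 in ByJcl, Abcc1 -0.021, Akr1a1 0.12 and Por 0.12 in the average, and Abcc1 0.026 for the interaction. With all 12 libraries they were Abcc1 -0.059, Cbr1 0.011 and Cbr3 0.085 in AJcl, Akr1a1 0.12 and Por 0.11 in the average, and Abcc1 0.13 for the interaction. For Por in AJcl the filter of 10 counts gave -0.0062 and the replicate block -0.062, and the block gave 0.021 for its interaction. The cause was not tested.

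With 1 library left out, log2 fold changes that turned ranged between substrains at baseline from -0.26 to 0.035 for Abcb1a and -0.26 to 0.0038 for Por. Between substrains at Day 5 they ranged from -0.35 to 0.50 for Abcb1b, -0.11 to 0.18 for Abcc1 and -0.21 to 0.0063 for Cbr3. For Day 5 in AJcl they ranged from -0.10 to 0.24 for Abcg2, -0.21 to 0.0403 for Cbr3 and -0.11 to 0.15 for Por, and in ByJcl from -0.0904 to 0.16 for Abcc1, -0.046 to 0.0899 for Akr1a1 and -0.15 to 0.095 for Por. In the average they ranged from -0.012 to 0.21 for Abcb1a, -0.062 to 0.069 for Cbr3 and -0.074 to 0.061 for Por, and for the interaction from -0.24 to 0.042 for Abcc1 and -0.19 to 0.081 for Por. The Day 5 difference of the Abcb1b share ranged from 6.47 to 9.62 points, and the substrain difference of the log2 ratio of Cbr3 to Cbr1 from -0.083 to 0.035.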
